A study of Mus musculus with 2 samples.

Results

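The genes described here make the proteins of the presynaptic terminal that store, release and retrieve synaptic vesicles. They were chosen by name as a functional set of 41 genes out of the 43346 Ensembl genes quantified, of which 21474 are annotated as protein-coding, and all 41 symbols matched a quantified gene. Their levels were read in the hindbrain of healthy B6NCrl mouse embryos at day 16.5 of gestation, the brain region that forms the cerebellum, pons and medulla. The study holds 1 group of 2 libraries, each from a separate pool of male and female embryos with no genotype or treatment named. Replicate 2 was made from the hindbrains of 37 embryos, and the sources used here do not give the size of the pool behind replicate 1. Total RNA over 200 bases long was extracted with the mirVana kit, 10 ng entered each library with added spike-in RNA, and the labels link the SMARTer Ultra Low protocol. The gene tables sum to 42467811 and 42017008 expected counts in replicates 1 and 2. The single group allows no contrast of conditions, and permuting 2 libraries can give no p under 0.5, so the levels, their spread and the differences between replicates and between paralogs are given without a test. Values come from whole tissue, in which fewer cells of a type and less RNA per cell cannot be told apart.

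At a nerve terminal, neurotransmitter is packed into vesicles that dock at the active zone, a protein scaffold opposite the postsynaptic cell. Docked vesicles are primed when the vesicle SNARE protein synaptobrevin begins to pair with syntaxin-1 and SNAP-25 of the plasma membrane, and they fuse when calcium binds synaptotagmin. The membrane is then retrieved by clathrin, amphiphysin, dynamin and synaptojanin, and the vesicle is refilled. In the developing brain, genes of this machinery are known to be transcribed before synapses mature, and some vesicle SNAREs also serve the growth of axons.

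Of the genes, 3 have alternative coding segments whose sequences separate the transcripts discussed further on. Snap25, which encodes the plasma membrane SNARE SNAP-25, has a pair of alternative 118-base coding exons on the plus strand of chromosome 2 (GENCODE M21 transcripts, GRCm38). The upstream exon, at chr2:136769743-136769860, is in transcript Snap25-202 and gives the SNAP-25a protein, and the downstream exon, at chr2:136770057-136770174, is in Snap25-201 and gives SNAP-25b. Capitals mark the 31 bases at which they differ, which leaves them 73.7% identical.
Snap25-202: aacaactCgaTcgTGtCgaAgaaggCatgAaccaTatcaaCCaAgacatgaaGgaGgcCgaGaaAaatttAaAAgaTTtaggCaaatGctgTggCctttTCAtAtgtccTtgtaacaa
Snap25-201: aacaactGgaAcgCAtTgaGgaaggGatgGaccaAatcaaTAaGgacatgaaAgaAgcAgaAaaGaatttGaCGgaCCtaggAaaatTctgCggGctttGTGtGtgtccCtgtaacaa
Dnm1, which encodes the fission enzyme dynamin-1, has a pair of alternative 139-base coding exons on the minus strand of the same chromosome. The upstream exon lies at chr2:32334682-32334820 and is shown from Dnm1-203, and the downstream exon lies at chr2:32333066-32333204 and is shown from Dnm1-201. Capitals mark the 39 differing bases, which leaves 71.9% identity.
Dnm1-203: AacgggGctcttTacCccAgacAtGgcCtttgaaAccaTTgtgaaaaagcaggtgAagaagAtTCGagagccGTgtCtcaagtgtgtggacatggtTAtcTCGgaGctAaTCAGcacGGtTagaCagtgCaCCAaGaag
Dnm1-201: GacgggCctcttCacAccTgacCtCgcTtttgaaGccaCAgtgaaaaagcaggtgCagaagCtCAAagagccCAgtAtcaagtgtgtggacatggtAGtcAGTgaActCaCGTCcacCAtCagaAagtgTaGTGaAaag
Syn1, which encodes synapsin-1, has a last exon that begins 38 bases earlier in Syn1-201, the transcript of synapsin Ia, than in Syn1-202, that of synapsin Ib. The extra coding segment lies on the minus strand at chrX:20861572-20861609.
Syn1-201: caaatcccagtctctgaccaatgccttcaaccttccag

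Nearly the whole release machinery was transcribed in the embryonic hindbrain. At a minimum of 1 TPM in both replicates, 40 of the 41 genes were detected, against a background of 63.5% of all protein-coding genes, and the exception was Cplx3. TPM, the share of transcripts scaled to a fixed total, corrects the counts for transcript length, so levels of different genes are compared on this scale alone. The median level of the set was 37.1 TPM, against 5.82 TPM over all protein-coding genes and 19.5 TPM over those detected. A mean of 100 TPM or more was reached by 11 of the genes, or 26.8%, against 8.18% of protein-coding genes. A further 25 lay between 10 and 100 TPM and 4 between 1 and 10 TPM. The summed level of the set was 3474 TPM in replicate 1 and 3497 TPM in replicate 2.

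**Figure D1:**
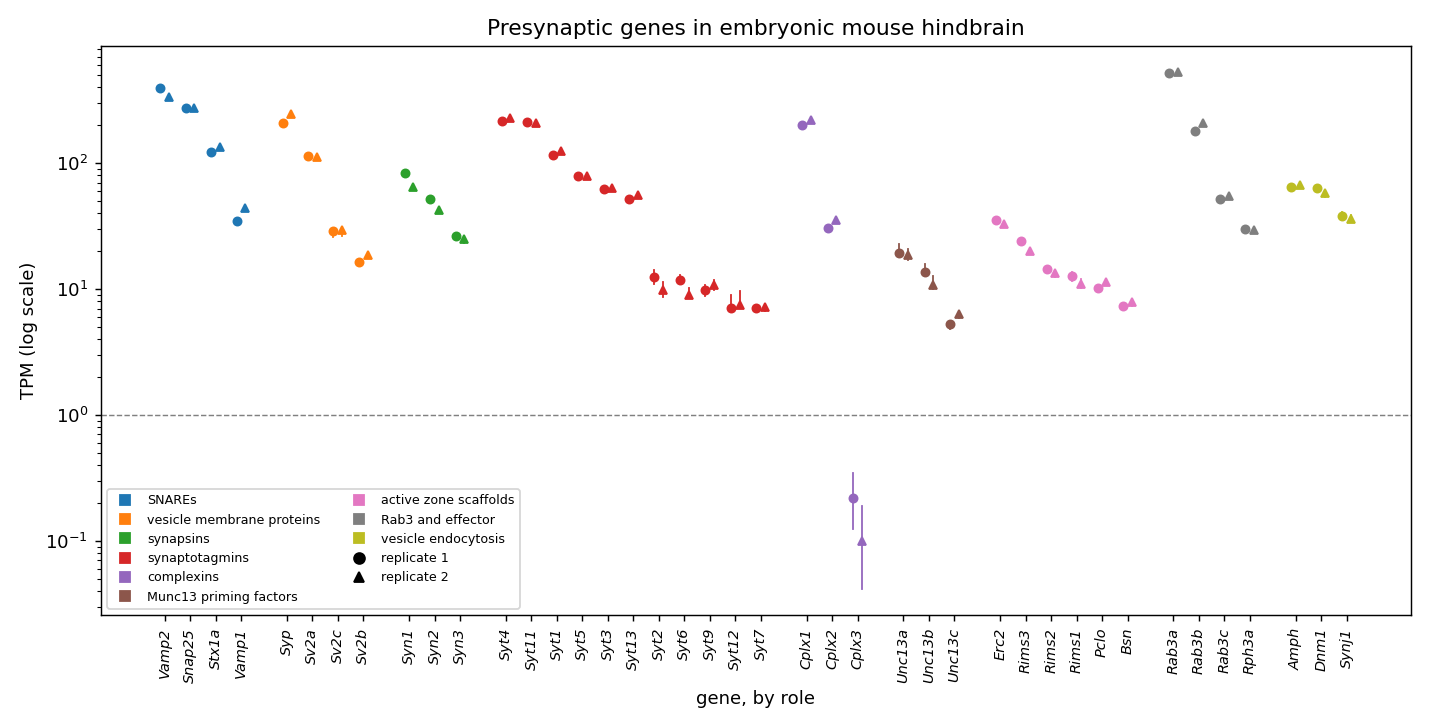
Level of each of the 41 genes in TPM, on a log axis, ordered within its role from high to low. Circles are replicate 1 and triangles replicate 2, vertical lines are the deposited intervals, colours are roles, and the dashed line is the 1 TPM minimum. Rab3a is the highest at 522 and 532 TPM, and Cplx3 is the only gene below the line.

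The order from the highest down was led by Rab3a, Vamp2, Snap25 and Syp. Whether neighbours in that order were distinct was read from the intervals that the authors deposited with each TPM value. Of the 40 neighbouring pairs, 12 had intervals that did not overlap in either replicate and 28 overlapped in at least 1. The first 3 steps, from Rab3a to Vamp2, to Snap25 and to Syp, were of the separated kind. Syp, Syt4, Cplx1, Syt11 and Rab3b then followed each other from 227 to 195 TPM without separation in both replicates. Rab3b and Stx1a, Stx1a and Syt1, and Sv2a and Syt5 were separated again.

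The SNARE proteins form the complex that drives fusion, and of their 4 genes Vamp2, Snap25 and Stx1a were above 100 TPM and Vamp1 was near the median of the set. Vamp2, the main synaptobrevin of the brain, lies at chr11:69088490-69092384 (GRCm38, GENCODE M21) and stood at 398 TPM in replicate 1 and 336 TPM in replicate 2 (367 ± 43.6 SD, n = 2). Its relative Vamp1, best known from motor and sensory neurons, stood at 34.6 and 44.1 TPM. Vamp2 was the higher in replicate 1 and Vamp1 in replicate 2, each with intervals apart, and Vamp2 was 9.37-fold above Vamp1 on average. Snap25 had overlapping intervals in the replicates, at 275 and 272 TPM. Stx1a, the gene of syntaxin-1A, was at 123 and 134 TPM, with intervals apart and the higher value in replicate 2.

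The order of paralogs was called only where the deposited intervals of both genes were apart in both replicates, with the same order. Of 27 pairs compared, 24 met this and 3 did not. Within the SNAP family, Snap25 was 17.2-fold above Snap23, the form used by most non-neuronal cells. It was not the leading gene of its family, however. Snap47, the gene of a broadly expressed relative, held 62.5% of the family's summed TPM (± 1.02 SD, n = 2), with 505 and 529 TPM, and Snap25 held 33.1%. Among Vamp1, Vamp2 and Vamp3, Vamp2 held 81.0%.

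**Figure D2:**
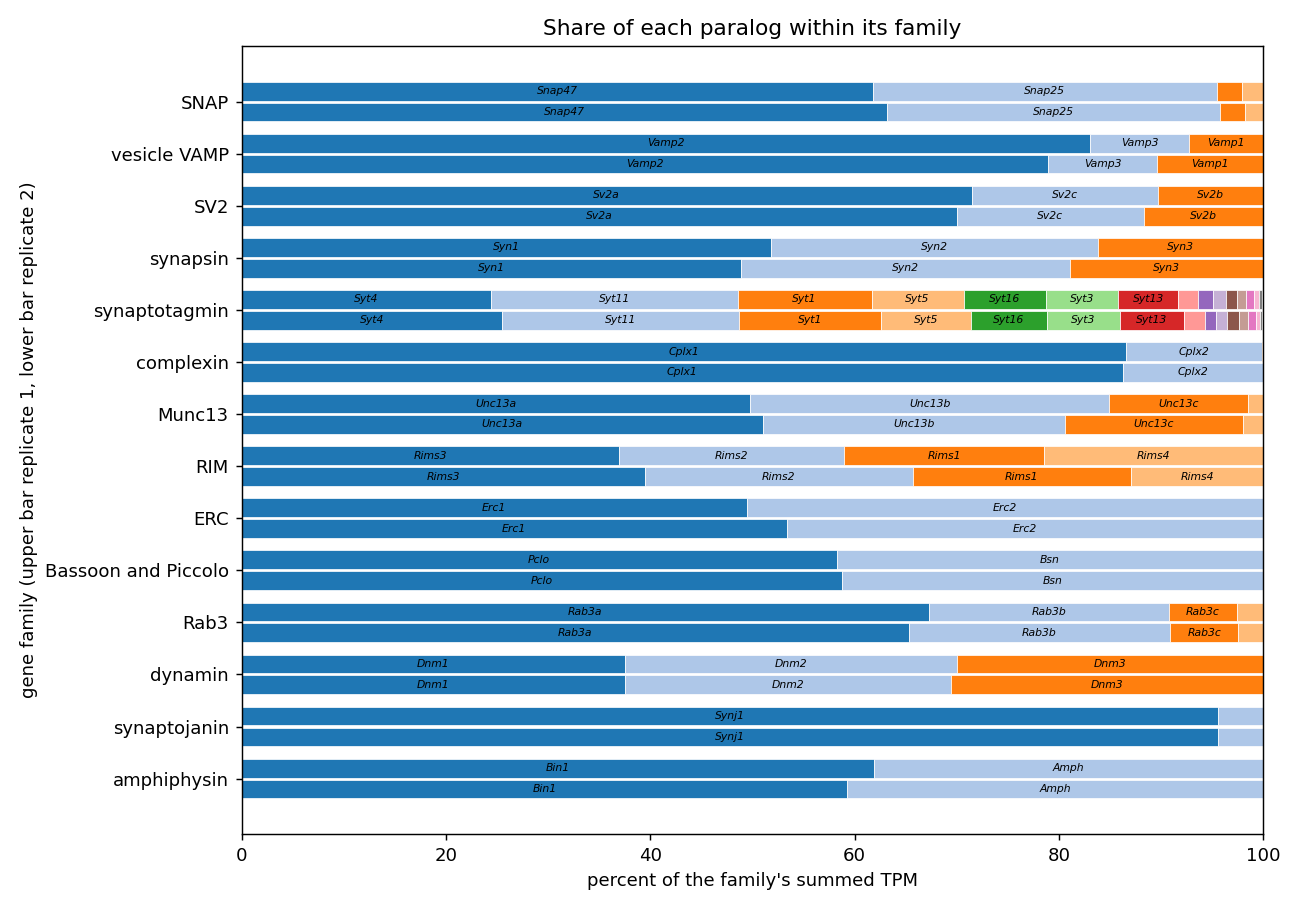
Share of each paralog in the summed TPM of its gene family, in percent, with replicate 1 as the upper and replicate 2 as the lower bar of each of 14 families. Each coloured segment is 1 gene, and segments too narrow for a name are unlabelled. Cplx1 (86.4%), Vamp2 (81.0%) and Synj1 (95.6%) dominate their families, whereas synaptotagmin RNA is divided over many genes.

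Genes of vesicle membrane proteins spanned 17.5 to 227 TPM on average. Syp encodes synaptophysin, an abundant vesicle protein that binds synaptobrevin, and stood at 209 TPM in replicate 1 and 244 TPM in replicate 2. It was 4.41-fold above Synpr, the gene of the related synaptoporin. Of the SV2 vesicle glycoproteins, Sv2a was at 113 and 112 TPM. Sv2c was at 28.9 and 29.2 TPM. Sv2b was lowest at 16.3 and 18.7 TPM. Sv2a, whose product binds the antiepileptic drug levetiracetam, thus held 70.7% of SV2 RNA and was 3.87-fold above Sv2c and 6.45-fold above Sv2b.

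The synapsins, phosphoproteins that tether vesicles in the reserve pool, are encoded by 3 genes. Syn1 was the highest at 84.0 TPM in replicate 1 and 64.4 TPM in replicate 2. Syn2 had 51.8 and 42.4 TPM. Syn3 had 26.2 and 24.85 TPM. The deposited intervals of the replicates were apart for Syn1 and Syn2 and overlapped for Syn3. The direction depends on scaling, since under spike-in totals all 3 were higher in replicate 2, with log2 ratios of 0.12 for Syn1, 0.21 for Syn2 and 0.48 for Syn3. Syn1 was 1.57-fold above Syn2, which was 1.84-fold above Syn3, and the order was the same in both replicates. Exons of all 3 synapsin genes overlap a gene on the opposite strand, namely Araf for Syn1 (342 TPM), Timp4 for Syn2 (45.7 TPM) and Timp3 for Syn3 (48.2 TPM). The sources used here do not say whether counting used strand. Expected counts were whole numbers in both replicates for Syn1 (6600 and 5189) and Syn2 (4782 and 4017). They were not whole for Syn3 (1889.07 and 1908.28). How reads from the shared stretches were assigned was not tested.

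Synaptotagmins are vesicle proteins with a pair of C2 domains, and the 11 in the set spanned 7.16 to 222 TPM. The forms whose C2 domains bind calcium weakly or not at all were well represented. Syt4 was at 216 and 227 TPM. Syt11, its closest relative, was at 214 and 207 TPM. These were not separable from each other, and both lay above Syt1, the fast calcium sensor of release in much of the brain, at 116 and 124 TPM. Syt4 was 1.85-fold and Syt11 1.75-fold above Syt1. Syt2 is the fast sensor known from mature hindbrain and spinal synapses, and it had 12.5 and 9.91 TPM. Syt1 was thus 10.8-fold above Syt2. Syt9, which can also act as a fast sensor, was at 9.77 and 10.8 TPM, a level near that of Syt2.

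The remaining synaptotagmins formed a middle and a low tier. In the middle were Syt5 with 79.7 and 78.5 TPM, Syt3 with 62.6 and 63.2 TPM, and Syt13, a form without calcium binding, with 51.8 and 55.8 TPM. The low tier held Syt6 with 11.8 and 9.01 TPM and Syt12 with 7.09 and 7.53 TPM. Syt7, the slow sensor with high calcium affinity, had 7.12 and 7.19 TPM and was not separated from Syt12. Syt3, which also has a high affinity, was 8.79-fold above Syt7. Over all 17 synaptotagmins quantified, Syt4 held 25.0% of the summed TPM, Syt11 23.7% and Syt1 13.5%, while Syt2 held 1.26% and Syt7 0.805%.

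Complexins are small proteins that clamp and activate the SNARE complex, and their genes spanned the widest range of any family in the set. Cplx1 stood at 199.7 TPM in replicate 1 and 221 TPM in replicate 2. Cplx2 stood at 30.7 and 35.05 TPM. Cplx1 was 6.40-fold above Cplx2 and held 86.4% of complexin RNA. Cplx3, at chr9:57599992-57606281 and best known from ribbon synapses of the retina, had 0.22 and 0.10 TPM, from 15 and 7 counts. Its deposited intervals ran from 0.124 to 0.344 TPM in replicate 1 and from 0.0412 to 0.189 TPM in replicate 2, and these overlap. Cplx1 was 1416-fold above Cplx3, with a log2 ratio of 9.83 in replicate 1 and 11.11 in replicate 2. Cplx4, the other retinal form, was listed at 0 in both replicates.

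The promoters of the highest and the lowest complexin of the set are shown because they stand at the ends of that range (RefSeq, GRCm38.p6, minus strand, 250 bases before to 50 after the start). Cplx1 lies at chr5:108549978-108550277 and Cplx3 at chr9:57606232-57606531. Capitals mark matches, on either strand, to the GC box GGGCGG or to CCAAT.
Cplx1: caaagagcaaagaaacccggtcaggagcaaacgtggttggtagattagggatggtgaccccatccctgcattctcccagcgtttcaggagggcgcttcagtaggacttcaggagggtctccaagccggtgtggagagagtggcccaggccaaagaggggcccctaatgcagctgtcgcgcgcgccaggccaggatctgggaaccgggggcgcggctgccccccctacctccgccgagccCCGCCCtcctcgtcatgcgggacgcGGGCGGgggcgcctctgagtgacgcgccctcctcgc
Cplx3: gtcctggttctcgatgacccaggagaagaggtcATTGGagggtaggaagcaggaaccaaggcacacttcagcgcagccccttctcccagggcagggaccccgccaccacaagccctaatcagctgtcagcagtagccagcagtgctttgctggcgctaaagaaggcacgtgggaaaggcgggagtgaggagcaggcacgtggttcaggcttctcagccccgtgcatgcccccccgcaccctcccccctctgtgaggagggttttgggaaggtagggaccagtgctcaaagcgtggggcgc
The Cplx1 window holds GGGCGG on both strands and no CCAAT, and the Cplx3 window holds CCAAT and no GGGCGG. Of the 41 genes 32 had such a window in the RefSeq table. GGGCGG was in 24 of these, or 75%, against 48.4% of 16317 protein-coding promoters of the same length. TATAAA was in 2, Rab3b and Sv2b, or 6.25% against 12.6%. The GC box was thus the most common of the motifs in the set and in the background. CCAAT was in 8, or 25% against 38.6%. TGACGTCA, the full cAMP response element, was in 1, Syn1, or 3.13% against 2.45%. None of the 4 motifs contains another, and both strands were searched for each. The median GC content was 62.2% for the set and 57% for protein-coding promoters. These are matches of letters and describe the windows alone.

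Munc13 proteins prime docked vesicles by opening syntaxin-1, and their genes were low. Unc13a, the gene of Munc13-1, had 19.3 and 18.5 TPM. Unc13b, of Munc13-2, had 13.6 and 10.7 TPM. Unc13c, of Munc13-3 and best known from cerebellar granule cells, had 5.26 and 6.35 TPM. The first was higher than the second by 1.56-fold and higher than the third by 3.27-fold. Unc13b was the higher in replicate 1 and Unc13c in replicate 2, each with intervals apart. Unc13a shares exon bases with Colgalt1 on the opposite strand, a gene at 48.6 TPM.

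Scaffold genes of the active zone were also at the low end. Erc2, whose product links the scaffold to the release site, was the highest of them with 35.15 and 32.8 TPM. It was not separated from Erc1, its broadly expressed relative, at 34.4 and 37.6 TPM, although summing coding transcripts alone gave a log2 ratio of Erc1 over Erc2 of -0.90. Rims3, a short form of RIM made of its C-terminal part, had 24.0 and 20.1 TPM. Rims2 had 14.3 and 13.4 TPM. Rims1 had 12.7 and 10.9 TPM. Both genes encode long RIMs that bind Rab3 and calcium channels. In TPM over all transcripts they were not separable, while Rims3 was 1.87-fold above Rims1. The leading Rims1 transcript, Rims1-207, has a coding sequence of only 657 bases and held 51.55% and 46.9% of Rims1 TPM. The 2 Rims2 transcripts have coding sequences of 4590 and 4716 bases. Pclo, at chr5:14514918-14863459, had 10.2 and 11.3 TPM. Bsn had 7.32 and 7.94 TPM. These encode Piccolo and Bassoon, the largest scaffold proteins of the zone, and Pclo was 1.41-fold above Bsn. That order turned when protein-coding transcripts alone were summed, with 7.63 TPM for Bsn and 5.075 TPM for Pclo on average. These sums rest largely on transcripts with shorter coding sequences. Bsn-202 (3511 bases) held 79.5% and 81.4% of Bsn TPM, and Pclo-204 (4774 bases) had 3.27 and 3.39 TPM. Bsn-201 (11826 bases), at 1.5 and 1.48 TPM, and Pclo-202 (14589 bases), at 1.74 and 1.75 TPM, had overlapping intervals in both replicates. Pclo shares exon bases with the antisense gene Gm26918, at 6.64 TPM.

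Rab3 proteins are small GTPases of the vesicle surface, and 1 of them led the whole set. Rab3a, at chr8:70754679-70758677 (GRCm38), had 522 TPM in replicate 1 and 532 TPM in replicate 2 (527 ± 6.80 SD, n = 2), at percentile 99.1 of protein-coding genes. Rab3b had 182 and 208 TPM. Rab3c had 51.6 and 54.65 TPM. Rab3a held 66.3% of the RNA of the 4 Rab3 genes and was 2.71-fold above Rab3b and 9.92-fold above Rab3c. Rph3a, which encodes the Rab3 effector rabphilin, was far lower at 29.95 and 29.3 TPM. Rab3a shares exon bases with Mpv17l2 on the opposite strand, a gene at 35.1 TPM.

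The genes of vesicle retrieval were at middle levels. Amph, of the membrane-bending protein amphiphysin, had 65.2 and 67.6 TPM. Dnm1 had 63.9 and 58.4 TPM. Synj1, of the lipid phosphatase that helps to shed the clathrin coat, had 38.1 and 36.1 TPM. All 3 had overlapping intervals between the replicates. Synj1 was 21.7-fold above Synj2. Bin1, the broadly expressed relative of Amph, was 1.54-fold above it. Dynamin RNA was divided nearly evenly, with 37.5% in the neuronal Dnm1, 32.2% in the ubiquitous Dnm2 and 30.3% in Dnm3. Dnm1 was 1.17-fold above Dnm2 and 1.24-fold above Dnm3 in TPM over all transcripts, and both orders turned when protein-coding transcripts alone were summed, with log2 ratios of -0.06 and -0.08.

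Partners of the machinery from other lists were detected in both replicates without exception in 4 of 5 lists. The background share was 63.5% of all protein-coding genes. All 18 genes of the SNARE cycle and priming list were detected. Napa and Nsf, which take used SNARE complexes apart, were at 202 and 193 TPM. Doc2b was the lowest of them at 3.34 TPM. All 14 active zone partners were detected, from Rimbp2 at 2.95 TPM to Ctbp1 at 295 TPM. All 19 endocytic partners were detected, from Ston2 at 6.13 TPM to Ap2m1, a subunit of the clathrin adaptor AP-2, at 766 TPM. All 9 genes of the proton pump that energizes vesicle filling were detected, from Atp6v1g2 at 121 TPM to Atp6v0c at 1455 TPM. Of 34 paralogs of the set, 33 were matched and 27 detected, led by Snap47 at 517 TPM, Syngr3 at 248 TPM and Bin1 at 102 TPM.

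Transcript shares add a further layer to these gene levels. The deposited tables give each transcript as a percent of its gene's TPM. The same transcript led in both replicates for all 41 genes, with 90% or more of the mean share in 16 of them and under 50% in 5, namely Dnm1, Rims1, Synj1, Syt7 and Unc13b. In 9 of the 41 genes, all among the 16 at 90% or more, only 1 transcript was quantified. Both results were fixed in advance for these 9. No such counts over all genes are given for comparison, so they are not read as a trait of the set. Expected counts were whole numbers in both replicates for 31 genes, to within 1e-09, and were not whole for the other 10, as arises when reads are divided between genes.

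Snap25-201, with the downstream exon printed above, held 94.5% of Snap25 RNA in replicate 1 and 95.9% in replicate 2 (95.2 ± 0.97 SD, n = 2). Snap25-202, with the upstream exon, held 4.86% and 3.28%. Its level was 13.4 TPM in replicate 1 and 8.93 TPM in replicate 2, with deposited intervals that were apart, from 10.9 to 15.4 TPM and from 7.20 to 10.6 TPM. Snap25-201 itself, at 260.25 and 261 TPM, had overlapping intervals. On the TPM scale a difference between the replicates was thus resolved for Snap25-202 and not for Snap25-201. The contrast between the transcripts was not tested. Snap25-203, which retains an intron, held 0.65% and 0.86%. The share is not a direct measure of exon use, because Snap25-201 also has a last exon of 1354 bases, against 277 bases in Snap25-202, and 1077 of its bases are in Snap25-201 alone. At even coverage, about 1490 and 1507 reads would lie over a 118-base exon used by every Snap25 molecule, while Snap25-202 was assigned 307 and 210 counts over its whole length.

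Dnm1 had the lowest leading share of the set, at 20.9% and 27.0% for Dnm1-203 among 13 transcripts. The 5 transcripts with the upstream exon printed above summed to 36.6 TPM in replicate 1 and 35.0 TPM in replicate 2. Dnm1-201, the 1 transcript with the downstream exon, had 8.07 and 6.03 TPM. Of the TPM in transcripts with either exon, the upstream exon therefore accounted for 81.9% and 85.3%. Dnm1-211, which retains an intron, held a further 16.3% and 17.5% of the gene's TPM.

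Synapsin-1 RNA was divided more evenly. Syn1-201, with the extra 38 bases, held 63.4% in replicate 1 and 58.2% in replicate 2, and Syn1-202 held 36.6% and 41.8%. In TPM these were 53.3 and 37.5 for Syn1-201, with deposited intervals apart, and 30.75 and 26.95 for Syn1-202, with overlapping intervals. On the TPM scale the excess of Syn1 in replicate 1 was thus resolved for the transcript of synapsin Ia and not for that of Ib. The contrast between these transcripts was not tested.

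Most of the set's RNA was assigned to transcripts annotated as protein-coding. The coding share was 95% or more in 29 genes and 80% or more in 33. No share over all genes is given for comparison. For the 9 genes with only 1 quantified transcript, which is protein-coding in each, the share was fixed in advance by the annotation. The same holds for others, such as Bsn, Rims2, Syn1 and Syn2, in which both quantified transcripts are protein-coding. The 8 genes below 80% were Stx1a, Dnm1, Syn3, Unc13a, Unc13b, Pclo, Syt6 and Syt9. Pclo had the lowest share at 47.3% and was the 1 gene led by a transcript that is not coding, Pclo-203 with a retained intron, at 50.9% and 54.5%. In Stx1a the coding share was 78.6%, and Stx1a-204, annotated as a target of nonsense-mediated decay, held 11.2% and 11.6%. In Syt9, a gene of 743 and 803 counts, the retained-intron transcript Syt9-202 held 13.1% in replicate 1 and 36.25% in replicate 2, with overlapping deposited intervals.

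**Figure D3:**
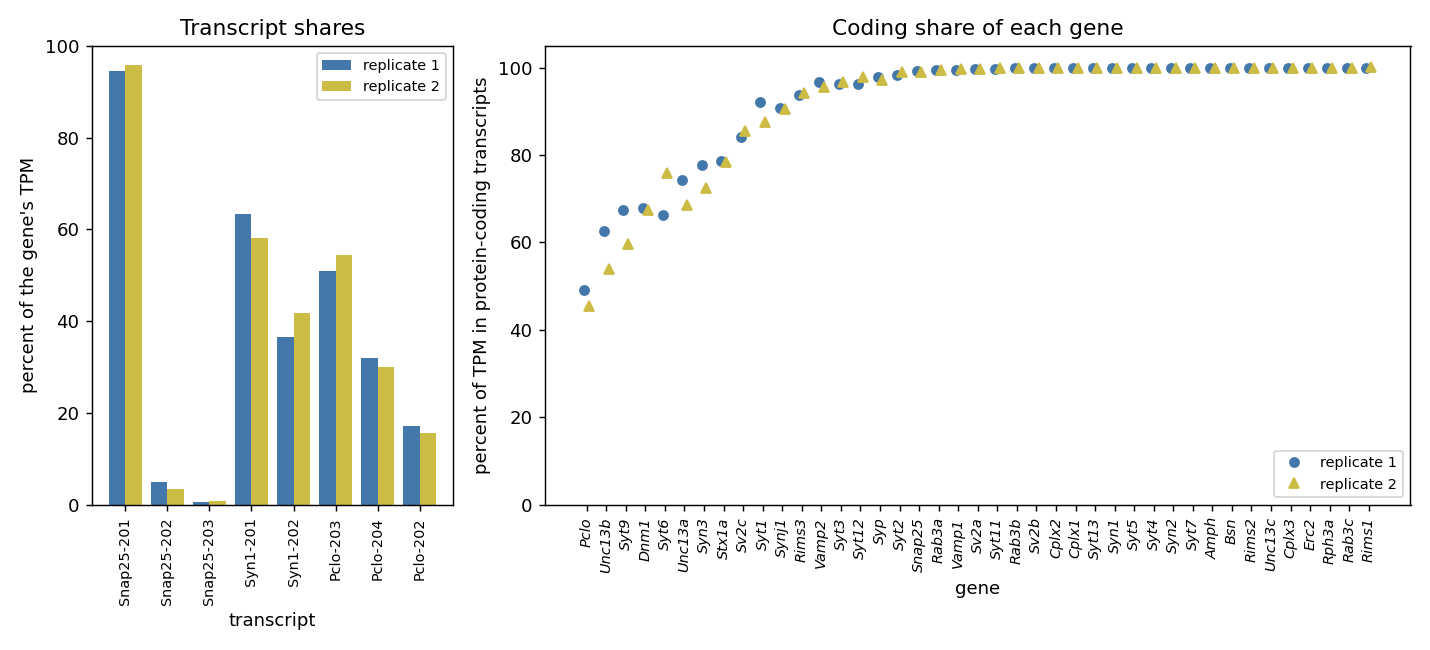
Left, percent of the gene's TPM in each transcript of Snap25 and Syn1 and in the 3 highest of 4 transcripts of Pclo, as bars from 0 for replicate 1 and replicate 2. Right, percent of each gene's TPM in protein-coding transcripts, ordered by the mean, with circles for replicate 1 and triangles for replicate 2, from Pclo at 47.3% on average to genes at 100%.

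Differences between the embryo pools were below 1.5-fold for the detected release genes, when ratios of replicate 2 over replicate 1 were taken on counts scaled with TMM. The spread between the libraries was taken over the 17947 genes with at least 10 counts in both. It came to a biological coefficient of variation of 15.7%, at which the log2 ratio of 2 libraries has an SD of 0.32. Of the 40 genes with a mean of 1 TPM, 0 lay past 2-fold, against a background of 1.51% of protein-coding genes at that mean and 4.5% of all genes. At a limit of 1.5-fold the count was also 0, against 4.49%. For a set of 40 genes both counts are near these background shares. The log2 ratios ran from -0.41 for Unc13b to 0.40 for Vamp1, and 36 of 40 were within 0.32 of 0. The median was 0.05, against -0.02 over protein-coding genes. All 40 lay inside the central 95% of protein-coding genes, which ran from -0.65 to 0.45.

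**Figure D4:**
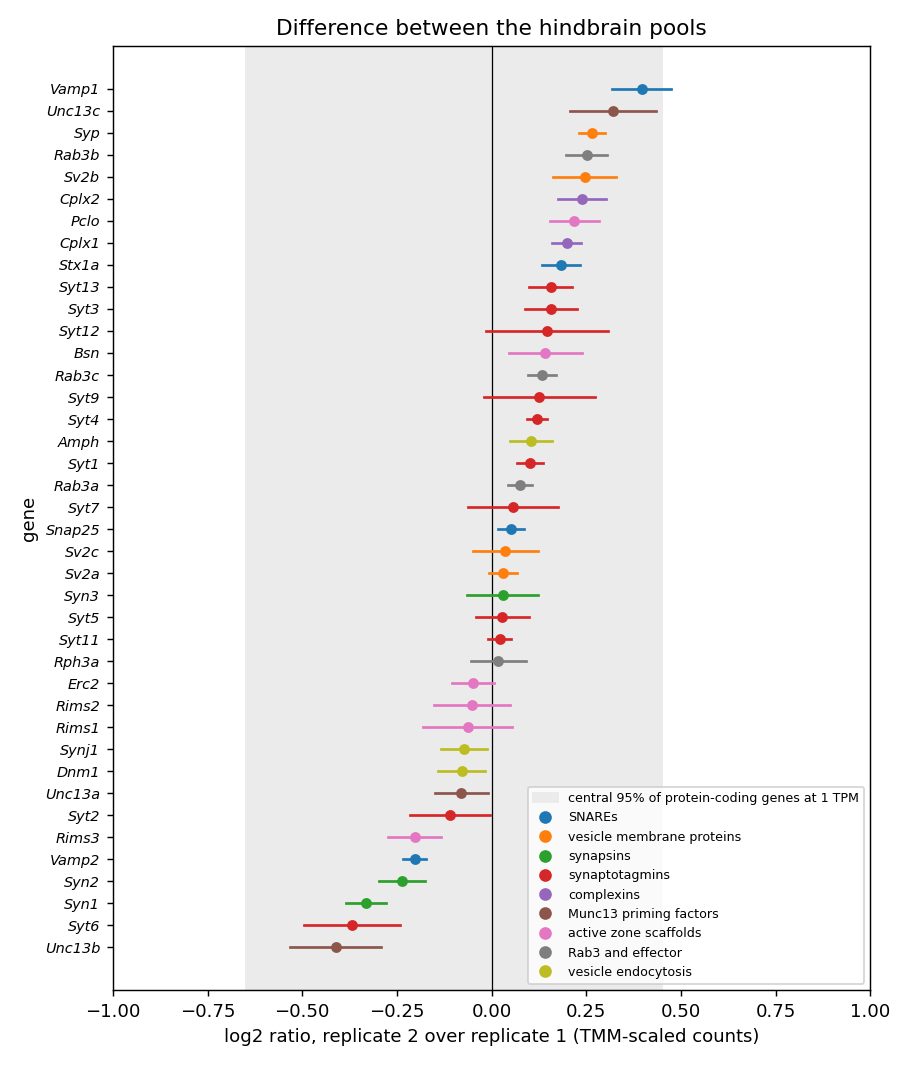
Log2 ratio of replicate 2 over replicate 1 for the 40 genes with a mean of 1 TPM, from TMM-scaled counts, coloured by role. Points are ratios, horizontal lines are 95% exact binomial intervals of counting error, and the grey band is the central 95% of protein-coding genes with a mean of 1 TPM. All points lie inside the band, from -0.41 for Unc13b to 0.40 for Vamp1.

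Small differences were nevertheless resolved by the deposited intervals, which are on the TPM scale. The deposited intervals were apart between the replicates for 20 of the 40 genes, or 50%, against a background of 31.4% of protein-coding genes. Since intervals narrow with depth, the same was read at a mean of 1000 counts or more, where 20 of 38 genes, or 52.6%, were apart against 41.2%. Of the 20, 13 were higher in replicate 2 and 7 in replicate 1. Counting intervals of the TMM ratios are another measure and do not pick the same genes. That of Erc2, among the 20, ran from -0.11 to 0.006, and that of Snap25, not among them, from 0.017 to 0.085. The deposited intervals cover counting and assignment error within a library and not the difference between embryo pools.

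The genes farthest toward replicate 2 were Vamp1, with a log2 ratio of 0.40 (counting interval 0.32 to 0.47), Unc13c at 0.32 (0.21 to 0.43) and Syp at 0.27 (0.23 to 0.30). Farthest toward replicate 1 were Unc13b at -0.41 (-0.53 to -0.29), Syt6 at -0.37 (-0.49 to -0.24), Syn1 at -0.33 (-0.39 to -0.28) and Syn2 at -0.24 (-0.30 to -0.18). Among genes with a mean of 1000 counts or more, the central 95% ran from -0.45 to 0.29, and Vamp1 and Unc13c lay outside it. By role, the synapsins had the lowest median at -0.24, with 2 of 3 negative.

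The direction of these ratios depended on the scaling. With TMM, 27 of the 40 genes, or 67.5%, were higher in replicate 2, against 46.9% of protein-coding genes. By the ratio of deposited TPM, 21 were higher in replicate 2 and 19 in replicate 1, against 38.7% higher in replicate 2 in the background. Spike-in totals made up 2.18% and 1.59% of the counts, and scaling by them moved every gene by 0.45 toward replicate 2. All 40 were then higher in replicate 2, as were 94.5% of protein-coding genes.

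Markers of some other tissues differed between the pools by more than any release gene. The 8 skeletal muscle markers, led by Acta1, Myl1 and Tnnc2, summed to 285 TPM in replicate 1 and 14.5 TPM in replicate 2, all 8 past 2-fold, with none listed at 0. The 9 forebrain markers, led by Lhx2, Dlx1 and Fezf2, summed to 25.3 and 6.38 TPM, with Emx1 listed at 0 in replicate 2 and 1 of 9 detected in both. The 5 meningeal fibroblast markers, led by Col3a1, Col1a1 and Col1a2, summed to 753 and 413 TPM and had a median log2 ratio of -0.80. The 5 markers of ganglion sensory neurons, Isl1 and Avil among them, summed to 37.55 and 21.4 TPM. These 4 lists were all higher in replicate 1. The 6 astrocyte markers, led by Aldoc, Slc1a3 and Aldh1l1, summed to 646 and 819 TPM, and 2 of them were past 2-fold higher in replicate 2. The part of these cells in the ratios of the release genes was not tested.

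Markers of neurons and of the hindbrain itself were closer between the pools in their summed levels. All 10 markers of neurons, led by Tubb3, Gap43 and Stmn2, were detected, with summed levels of 5854 and 6161 TPM and a median log2 ratio of 0.06, beside 0.05 for the release genes. All 10 hindbrain markers, led by Hoxb5, Hoxa5 and Hoxd3, were detected, and summed to 290.05 and 314 TPM. Their median log2 ratio was 0.10, with 6 higher in replicate 2 and 4 in replicate 1. Single hindbrain markers differed more. Hoxa4, named after its value was seen, had 4.67 and 7.33 TPM. Its log2 ratio of 0.70 (counting interval 0.43 to 0.98) was farther from 0 than that of any release gene with a mean of 1 TPM. The 5 progenitor markers, led by Hes5, Pax6 and Nes, had a median log2 ratio of -0.07.

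Among partner genes whose mean reached 1 TPM, 0 were past 2-fold toward replicate 2 and 2 were past it toward replicate 1, where 1.51% of protein-coding genes at that mean were past it either way. Both are named after their values were seen. Rims4, a short RIM related to Rims3, had 13.9 and 6.60 TPM, and Ppfia1, of the scaffold protein liprin-alpha1, had 18.1 and 8.79 TPM. All 9 proton pump genes were higher in replicate 2 under TMM, against 46.9% of protein-coding genes, with a median log2 ratio of 0.10. The lowest, Atp6v0a1 at 0.013, had a counting interval of -0.021 to 0.047. By deposited TPM, Atp6v0a1 (151 and 147) and Atp6v1a (126 and 125) were instead lower in replicate 2.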

How the data were processed

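Total RNA-seq was made from 2 pools of embryonic hindbrain, which the labels call separate biological replicates. The authors deposited, per the file headers, expected counts, TPM and FPKM per gene and per transcript, posterior mean TPM, interval bounds around it (treated here as a score, since their level is not stated) and, per transcript, the percent of its gene's TPM. Because the intervals are centred on the posterior mean, the TPM of 8 genes in replicate 1 and of 7 in replicate 2 lies above them. Assembly mm10 and the GENCODE M4 annotation are named in the labels and deposited notes, and the sources used here do not give the quantification tool.

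Of 69691 features listed, 43346 are Ensembl genes. Names and types came from GENCODE M21, which matched 42462 and left 884. The genes and lists were chosen with earlier results of these data known. All 41 genes are named, with both genes of each pair, the highest few and the lowest gene of each partner list, and up to 3 markers per cell type. A few genes under this rule are not reported here.

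After rounding, expected counts received TMM factors from edgeR 4.0.16 under R 4.3.3, leaving out spike-ins, and a prior count of 0.5. DESeq2 1.42.0 size factors were an alternative. Counting intervals are exact binomial at 95% and cover counting error only. Python 3.11.15, pandas 2.3.3, SciPy 1.17.1 and matplotlib 3.10.9 were used. Depth was 42467811 and 42017008 expected counts. For the comparison of the replicates 43346 genes were simulated, with 200 changed. The changed genes and the unchanged genes scored all had an expected mean of 100 counts or more. Of these, 100% of 4-fold and 45% of 2-fold genes came out past 2-fold, as did 0.315% of unchanged genes. The 2-fold genes were set at the limit itself. Alternatives changed the expression unit, detection minimum, scaling, prior count, filter and transcripts summed, and left out each replicate.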

Additional observations from a re-analysis of the deposited data

How the results depend on the processing

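No paired analysis was possible because the study has 1 group. The number of genes detected stayed at 40 under minimums of 0.5 and 5 TPM, with FPKM, posterior mean TPM or coding transcripts alone, and in either replicate alone. The median level of 37.1 TPM became 22.3 in FPKM and 34.0 with coding transcripts alone, and ran from 35.15 to 36.1 when 1 replicate was left out. The median log2 ratio of 0.05 became 0.50 under spike-in totals, by the construction of that scaling. Without a filter on low values, 1 gene, Cplx3, was past 2-fold. With coding transcripts alone, log2 ratios turned to 0.59 for Bsn over Pclo, -0.90 for Erc1 over Erc2, -0.056 for Dnm1 over Dnm2 and -0.081 for Dnm1 over Dnm3, where the cause was not tested. Erc1 over Erc2, not called, ran from -0.033 to 0.20 when 1 replicate was left out. The share of Snap25-201 ran from 94.5% to 95.9%. With 2 libraries of 1 group, differences between pools and technical differences cannot be told apart, and low genes such as Cplx3 rest on few counts.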
